A study of Homo sapiens with 10 samples.

Results

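The genes of 8 SWI/SNF subunits were examined as places where the complex itself, or parts of it, is found on chromatin. They are SMARCA4, SMARCA2, ARID1A, ARID1B, ARID2, PBRM1, SMARCC1 and BRD9, each taken from its hg19 coordinates with 20 kb on either side, together 1666 kb. Peaks of the 2 SMARCB1 lists and the 6 BRD9 lists were used. When the BRD9 lists were merged, 72 of 119939 BRD9 regions lay in these windows. Regions called in both SMARCB1 lists numbered 142 of 87773 there.

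The libraries are CUT&RUN, in which an antibody brings a nuclease to a chromatin protein so that the DNA around it is cut out and sequenced. All came from G401, a rhabdoid tumour line of genotype SMARCB1(-/-), in which doxycycline induced either GFP, the control, or SMARCB1. BRD9 was measured in 3 replicates of GFP-induced and 3 of SMARCB1-induced cells with a rabbit polyclonal antibody, and SMARCB1 in 2 replicates of SMARCB1-induced cells with a rabbit monoclonal antibody. SMARCB1 in GFP-induced cells and an IgG library of SMARCB1-induced cells were not analysed here. Every group shares the deleted gene, the single line and the doxycycline, and the labels give neither its dose, nor the time of induction, nor whether the induced cells are clones. Whether replicates were separate cultures is not stated, so the p-values measure only the spread between these libraries, which may be technical. BRD9 libraries held 10.1 to 13.9 M reads and the SMARCB1 libraries 64.2 and 59.7 M, so absence of a BRD9 peak means that none was called at this depth.

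SWI/SNF complexes use ATP to move or evict nucleosomes and so open enhancers and promoters. SMARCA4 and SMARCA2 are the alternative ATPases, and SMARCC1 belongs to the scaffold that all forms of the complex share. ARID1A or ARID1B defines the canonical form, BAF, whereas ARID2 and PBRM1 define the polybromo form, PBAF, and SMARCB1 is a subunit of both. BRD9 marks the non-canonical form, which has no SMARCB1 and is the form that rhabdoid cells are known to depend on.

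The question was whether BRD9 differed at these genes between GFP-induced and SMARCB1-induced cells, and how its peaks lay relative to SMARCB1. ARID1A and ARID1B held most of the difference: 9.93 to 12.8 kb of the ARID1A window was under BRD9 peaks in the SMARCB1-induced lists against 4.26 to 7.66 kb in the GFP-induced lists, and 4.45 to 5.28 kb against 0 to 1.04 kb at ARID1B. SMARCA4 differed by less, SMARCC1 in the opposite direction, and at SMARCA2, ARID2, PBRM1 and BRD9 the groups overlapped. With 3 lists against 3, the two-sided exact permutation test used for each gene cannot give a p below 0.1, so no single gene could pass 0.05. All 3 SMARCB1-induced lists lay above all GFP-induced lists at 3 of the 8 genes. The same held for 28.9% of the 10704 tiles of 200 kb across the genome that held a BRD9 peak, so 3 of 8 is close to this background. All 3 lay below at 1 of 8 genes, against 8.01% of tiles; tiles differ in length from the gene windows.

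**Figure D1:**
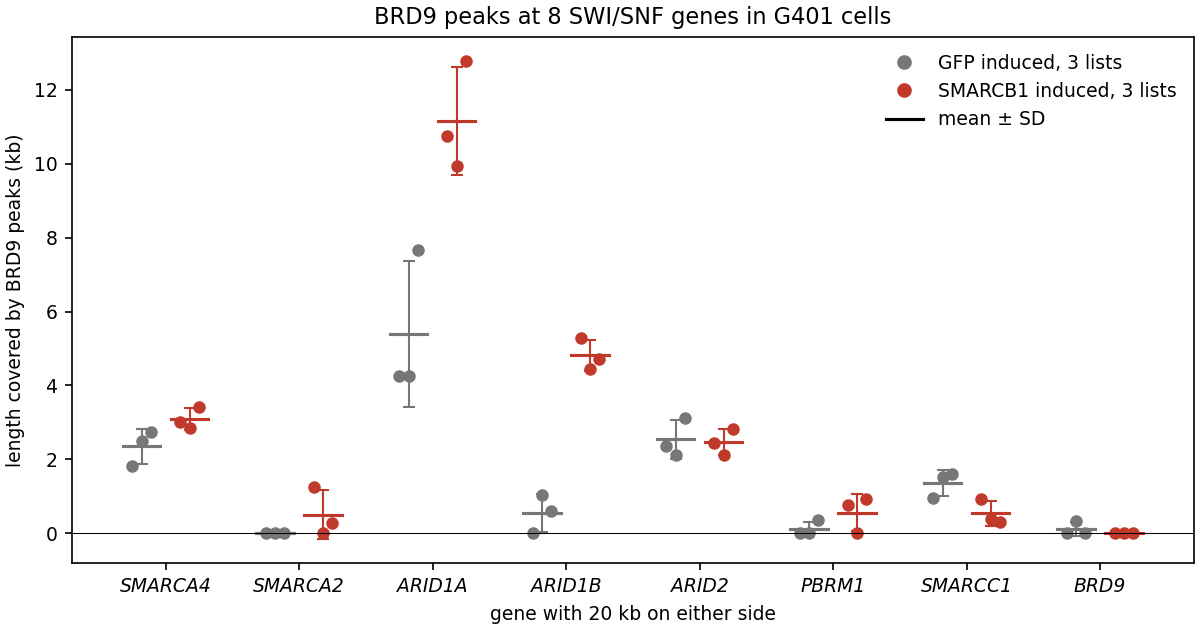
Length covered by BRD9 peaks (kb, vertical axis) in the window of each gene (horizontal axis), with 1 point per list and the mean ± SD of 3 lists. Grey points are GFP-induced and red points SMARCB1-induced cells. The groups are apart at ARID1A, ARID1B, SMARCA4 and SMARCC1, and overlap at the other 4 genes.

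Summed over the windows, BRD9 peaks numbered 14, 23 and 26 with GFP and 34, 29 and 36 with SMARCB1. The covered length was 9.40, 11.8 and 16.1 kb after GFP and 24.4, 19.8 and 25.2 kb after SMARCB1. The log2 ratio of the means was 0.90, against 0.18 for the covered share of the whole genome. No test was made of these sums, because the genes were chosen with results of these data known. ARID1B carried much of the difference in peak number: the log2 ratio of peaks was 0.65 over 8 genes and 0.29 without ARID1B.

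Gained regions are those with a peak in every SMARCB1-induced list and in 0 GFP-induced lists, and lost regions the reverse. Of the 72 regions, 9 were gained, or 12.5%, against 6.85% of all BRD9 regions. They lay at ARID1A with 4, ARID1B with 3 and SMARCA4 with 2. At a SMARCB1 region lay 53 of the 72, or 73.6%, against 37.8% of all BRD9 regions. Among BRD9 regions at a SMARCB1 region, 9 of 53 were gained in the windows and 7880 of 45349 in the genome, which are similar shares. None of the 72 was lost, where 1.04% of all regions were. A further 6, or 8.33%, were called in all 6 lists, against 4.67% of all regions, and 38, or 52.8%, in a single list, against 62.9%. When peaks within 500 bp of each other were merged, 7 of the 9 were still gained, and 7.76% of all regions were gained. The 2 members that were not are the region over the SMARCA4 start and the best-ranked one of ARID1A.

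SMARCA4, the catalytic ATPase of many of these complexes, carried 2 upstream BRD9 regions called in every list and a region over its start that was called only in SMARCB1-induced lists. In hg19, the gained region at chr19:11070901-11071774 reached from 697 bp before to 176 bp after the annotated start. Its peaks had 2.94, 3.33 and 2.90 RPKM (reads per kilobase of peak and per M reads of the library) in the 3 SMARCB1-induced lists, from 16, 26 and 20 reads, where the shared control library had 0.957 to 1.25 RPKM. None of the GFP-induced lists reached it, although replicate 2 of that group held a separate peak at chr19:11070376-11070652, which ends 946 bp before the start, with 10 reads, and replicate 3 another at chr19:11069826-11070351, with 17 reads. The first ended 249 bp before the gained region, and when peaks within 500 bp were merged all of these joined, so that the region had peaks of 2 GFP-induced lists and was no longer gained. A second gained region, chr19:11195867-11196901, lay beyond the end of the gene, 124 kb from its start. It had 4.36, 4.47 and 3.91 RPKM, with 0.754 to 0.959 RPKM in the control. This region crossed the end of the window at chr19:11196071, so it lay only partly within the 20 kb flank.

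The 250 bases before the start of SMARCA4 are shown because a BRD9 region was gained there, those of ARID1A because BRD9 peaks ended just before its start in most lists, and those of SMARCA2 because no BRD9 list had a peak within 1 kb of that start. They come from RefSeq on GRCh38.p14 (chr19:10960780-10961029, chr1:26695765-26696014 and chr9:2015097-2015346, all plus strand), from the entry nearest the annotated edge of the gene, and were not placed on the hg19 peaks. Capitals mark GC boxes, GGGCGG on either strand.
SMARCA4: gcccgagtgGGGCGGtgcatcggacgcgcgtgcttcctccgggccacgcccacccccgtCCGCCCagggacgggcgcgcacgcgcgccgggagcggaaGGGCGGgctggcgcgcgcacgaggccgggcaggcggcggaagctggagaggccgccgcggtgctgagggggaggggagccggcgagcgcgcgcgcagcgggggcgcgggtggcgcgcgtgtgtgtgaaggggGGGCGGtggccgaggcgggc
ARID1A: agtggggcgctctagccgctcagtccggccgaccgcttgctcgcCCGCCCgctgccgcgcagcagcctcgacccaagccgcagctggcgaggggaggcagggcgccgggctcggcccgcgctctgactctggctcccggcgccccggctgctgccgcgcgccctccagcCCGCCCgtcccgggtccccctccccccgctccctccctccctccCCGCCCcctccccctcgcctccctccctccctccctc
SMARCA2: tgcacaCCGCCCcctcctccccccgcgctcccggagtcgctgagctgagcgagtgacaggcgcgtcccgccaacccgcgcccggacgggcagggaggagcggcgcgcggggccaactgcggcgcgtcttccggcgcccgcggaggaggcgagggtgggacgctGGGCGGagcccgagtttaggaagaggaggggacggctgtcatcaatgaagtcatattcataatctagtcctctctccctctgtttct
SMARCA4 held 4 GC boxes and 44 CpG pairs, ARID1A 3 and 30, and SMARCA2 2 and 29. Among the member genes not shown, BRD9 held 1 GC box and 32 CpG pairs, PBRM1 0 and 26, and ARID1B 0 and 5. The median over 35116 RefSeq promoters of this length was 11 CpG pairs, and 42.6% held a GC box. Of the 6 member genes in the table, 0 held the AP-1 motif TGANTCA or the TATA box TATAAA, which 6.57% and 10.7% of all promoters held, and ARID1B and PBRM1 held CCAAT, as did 32% of all. The stretches at SMARCA4, ARID1A and SMARCA2 are thus all rich in CpG, with BRD9 peaks called at the hg19 starts of SMARCA4 and ARID1A and not of SMARCA2.

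Over the whole SMARCA4 window, BRD9 peaks covered 1.81, 2.50 and 2.74 kb in GFP-induced and 3.00, 2.86 and 3.43 kb in SMARCB1-induced cells. The groups did not overlap, and the means were 2.35 ± 0.480 and 3.09 ± 0.298 kb (SD, n = 3 each; exact permutation p = 0.1). Within the gene body alone the difference was 0.228 kb (exact permutation p = 0.4), so it lay mainly at the start and in the flanks. Both regions called in every list lay upstream. At chr19:11057351-11058741, 12.9 kb before the start, BRD9 had 4.61, 6.03 and 5.88 reads per M library reads with GFP and 5.77, 6.31 and 5.25 with SMARCB1. At chr19:11052222-11053151, 18.4 kb before the start, they had 1.41, 4.05 and 3.62 against 3.62, 1.38 and 2.88. Neither difference passed (log2 difference 0.07 ± 0.33 and -0.20 ± 0.48 SE, edgeR adjusted p = 0.901 and 0.796). The first lay in the SMARCB1 region of the window with the best mean rank by the authors' score, which is 3400 bp wide.

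SMARCA2, the other ATPase, stood apart by how little was found. No GFP-induced list held a BRD9 peak in its 218 kb window. The SMARCB1-induced lists held 1, 0 and 1, covering 1.25, 0 and 0.263 kb, the first of 38 and the second of 10 reads. The groups overlapped at 0 (exact permutation p = 0.4). SMARCB1 was also scarce: 1 region was called in both lists, chr9:2058451-2060001, 43.1 kb into the gene at 1.32 and 1.28 RPKM, and it held the larger of the BRD9 peaks. At the start of SMARCA2 a SMARCB1 peak was called in replicate 2 and not in replicate 1, the only member start not called in both lists.

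**Figure D2:**
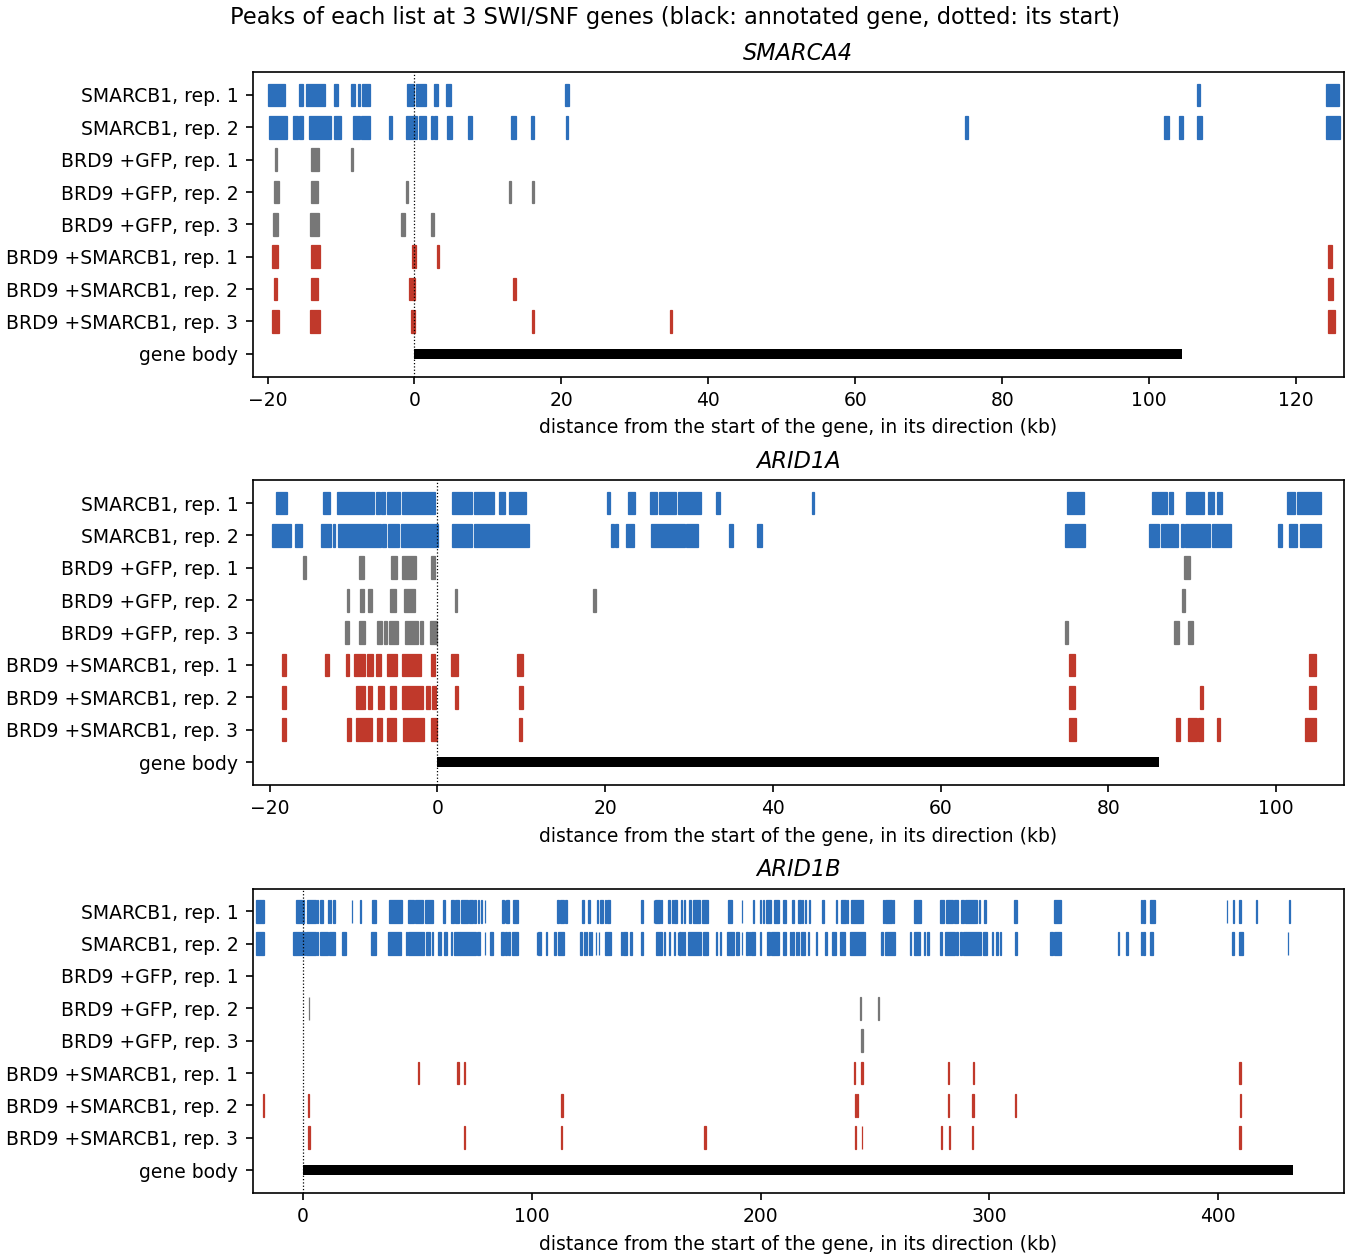
Peaks of each list along SMARCA4, ARID1A and ARID1B, by distance from the start of the gene in its direction (kb, horizontal axis), with SMARCB1 lists in blue, BRD9 lists of GFP-induced cells in grey and of SMARCB1-induced cells in red; narrow peaks are widened slightly by their outline. BRD9 peaks cluster upstream of ARID1A in all 6 lists, whereas at ARID1B they are few in the grey lists and spread through the gene body in the red ones.

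ARID1A, the DNA-binding subunit of canonical BAF, carried the most BRD9 of the 8 genes. The GFP-induced lists held 6, 8 and 11 peaks and the SMARCB1-induced lists 13, 13 and 14. Their covered length was 4.26, 4.26 and 7.66 kb against 10.8, 9.93 and 12.8 kb. Every SMARCB1-induced list was above every GFP-induced one, and the means were 5.39 ± 1.97 and 11.2 ± 1.47 kb (SD, n = 3 each; exact permutation p = 0.1). The gene body alone gave a difference of 1.38 kb, against 5.76 kb with the flanks, so the difference lay largely outside the gene.

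Much of ARID1A's BRD9 lay in the 10 kb before the start, where 3 regions were called in all 6 lists. At chr1:27012598-27014798, 7.72 kb before the start, the GFP-induced lists had 2.26, 5.04 and 3.23 reads per M and the SMARCB1-induced lists 7.50, 6.41 and 9.71. The groups did not overlap, but the difference did not pass (log2 1.16 ± 0.40 SE, edgeR adjusted p = 0.0922). DESeq2 gave log2 1.40 and an adjusted p of 0.0116, edgeR without GFP-induced replicate 2 gave 1.52 and 0.0204, and reads per covered base gave -0.046. Over all its alternatives the adjusted p ran from 0.0116 to 0.906. Read density in the peaks was similar, with mean RPKM of 4.49 after GFP and 4.39 after SMARCB1, so the groups differed in peak length more than in density. At the region nearest the start, chr1:27018251-27020972, ending 1.55 kb before it, the reads per M were 7.06, 11.6 and 8.42 against 12.1, 13.9 and 11.3. These values overlapped (log2 0.46 ± 0.29 SE, edgeR adjusted p = 0.316). At the other one, chr1:27016486-27017820, the log2 difference was -0.12 ± 0.41 (SE, edgeR adjusted p = 0.852).

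Among all 5598 regions called in every BRD9 list, edgeR's quasi-likelihood test found more reads after SMARCB1 in 219, or 3.91%, and fewer in 344, or 6.15%. The balance turned with the scaling: TMM factors gave 320 higher and 225 lower, and DESeq2 488 higher and 347 lower. Of the 6 such regions at these genes, 0 passed in either direction. At an unadjusted edgeR p below 0.05, 1588 of all regions and 1 of the 6, the ARID1A region 7.72 kb before its start, did. In simulated counts this fit recovered 21 of 100 regions changed 2-fold and 89 of 100 changed 4-fold. Not passing therefore does not show that a region was unchanged. The counts over all regions moved with single libraries, from 62 higher without SMARCB1-induced replicate 2 to 410 without GFP-induced replicate 2, and from 99 to 957 lower without the same libraries. The median over all 5598 was -0.32 on the library-total scale and -0.09 with edgeR's TMM or DESeq2's factors, so a value of 0 at a member lies above most regions on the first scale.

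**Figure D3:**
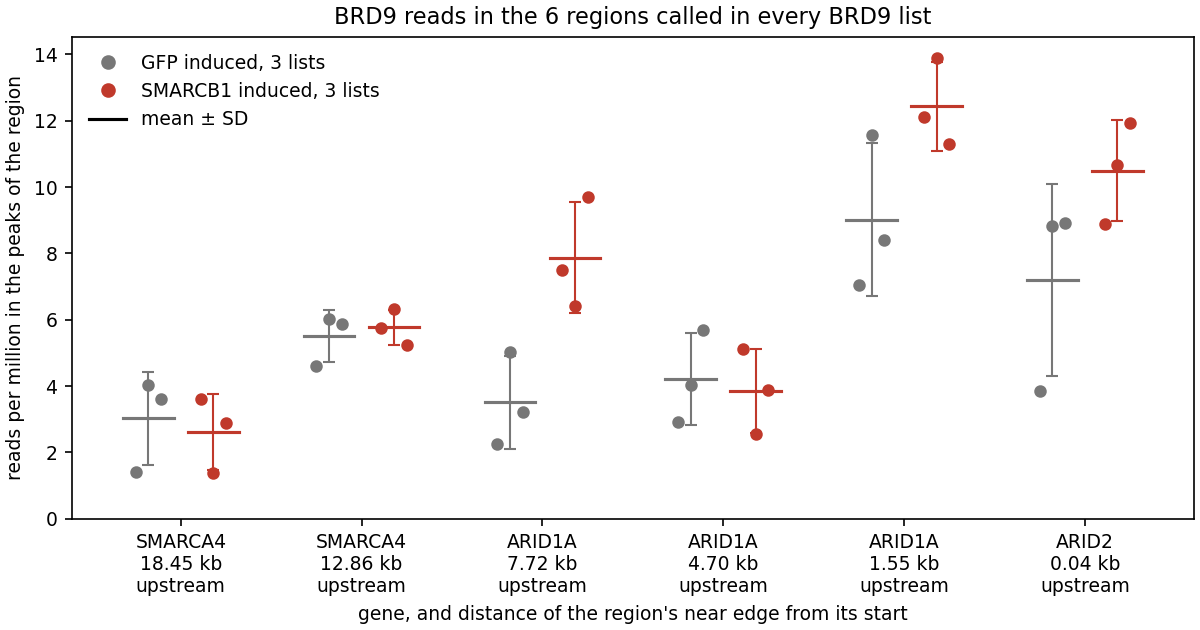
Reads per M library reads in the peaks of the 6 regions called in every BRD9 list (vertical axis), by gene and distance upstream of its start (horizontal axis), with 1 point per list and the mean ± SD of 3 lists; grey is GFP-induced and red SMARCB1-induced. The groups are apart at the ARID1A region 7.72 kb upstream and overlap at the other 5, by very little at ARID2.

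Close to the ARID1A start itself, chr1:27021676-27022461 ended 61 bp before it and held a peak in 2 GFP-induced lists (3.91 and 3.99 RPKM) and all 3 SMARCB1-induced lists (3.61, 4.22 and 2.83 RPKM). It was therefore present without induced SMARCB1. The gained regions lay elsewhere. That with the highest values, chr1:27097801-27098651, was 75.3 kb into the gene body at 5.35, 5.41 and 5.76 RPKM, from 52, 37 and 68 reads, with 1.60 to 1.78 RPKM in the control. A peak of GFP-induced replicate 3, with 13 reads and 3.39 RPKM, ended 50 bp before it, and merging within 500 bp ended its gained call. The others named by the rule were chr1:27125926-27127316 downstream of the gene, at 4.53, 3.06 and 3.56 RPKM, and chr1:27032058-27032715, 9.54 kb into it, at 3.64, 3.58 and 3.05 RPKM. The control had 0.692 to 0.894 RPKM at the former and 1.25 to 1.57 RPKM at the latter. The downstream one lay in chr1:27125026-27127901, the best-ranked SMARCB1 region of the window, at 2.28 and 2.70 RPKM. PIGV, which acts in building GPI anchors, is the next protein-coding gene on that side in RefSeq's GRCh38.p14 order; its distance to the region was not measured here.

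ARID1B, the paralogue that can take the place of ARID1A in BAF, showed the largest fold difference of the genes with BRD9 peaks in both groups. Its lists held 0, 3 and 1 BRD9 peaks after GFP and 8, 9 and 10 after SMARCB1. Covered length was 0, 1.04 and 0.597 kb against 5.28, 4.45 and 4.71 kb. The groups were far apart, with means of 0.547 ± 0.523 and 4.81 ± 0.426 kb, an 8.81-fold difference (SD, n = 3 each; exact permutation p = 0.1). Here the flanks counted for little, since the gene body alone gave 4.16 of the 4.27 kb.

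The 3 gained regions of ARID1B all lay deep in the gene body, 241, 292 and 409 kb from its start. The best ranked, chr6:157391551-157392188, had 4.14, 4.08 and 3.78 RPKM, with 1.79 to 2.00 RPKM in the control. At chr6:157508251-157508985 the values were 3.37, 3.99 and 2.71 RPKM, and at chr6:157339951-157340796 they were 3.00, 3.59 and 3.84 RPKM. The control had 0.766 to 1.03 RPKM at the former and 1.66 to 2.20 RPKM at the latter. All 27 BRD9 peaks of the SMARCB1-induced lists in this window overlapped SMARCB1 regions, against 57.1% to 65.3% of the peaks of those whole lists. In the GFP-induced lists 2 of the 3 peaks of replicate 2 and the 1 peak of replicate 3 did. No BRD9 list had a peak within 1 kb of the ARID1B start, where both SMARCB1 lists did.

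SMARCB1 was called over a wide part of ARID1B: 61 regions covered 145 kb, or 30.7% of the window, against 5.77% of the genome. BRD9 was found at 13 of the 61 in any list, or 21.3%, against 36.9% of all SMARCB1 regions. The GFP-induced lists had it at 0, 2 and 1 of them, or 0% to 3.28%, against 7.41% to 11.6% of all SMARCB1 regions. The SMARCB1-induced lists had it at 7, 8 and 9, or 11.5% to 14.8%, against 21.5% to 22.5%, so the shares at ARID1B lay below those of the genome in both groups. The best-ranked SMARCB1 region, chr6:157273351-157276126, had 1.87 and 2.37 RPKM and a BRD9 peak in 1 list.

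ARID2, the DNA-binding subunit of PBAF, had a BRD9 region next to its start in both conditions. The region chr12:46120963-46123576 ended 44 bp before the start and was called in all 6 lists. It had 3.86, 8.84 and 8.91 reads per M in GFP-induced and 8.90, 10.7 and 11.9 in SMARCB1-induced cells. Replicate 1 of the GFP-induced group was low, and the other 2 lay at the lower edge of the induced values (log2 0.54 ± 0.37 SE, edgeR adjusted p = 0.345). Covered length in the window was 2.37, 2.13 and 3.12 kb against 2.44, 2.12 and 2.83 kb, with means of 2.54 ± 0.518 and 2.46 ± 0.353 kb (SD, n = 3 each; exact permutation p = 0.9). The sign of that difference turned when GFP-induced replicate 3 or SMARCB1-induced replicate 2 was left out. BRD9 peaks also lay within the gene, and in the gene body alone the difference was -0.516 kb (exact permutation p = 0.4). Of the window's 7 BRD9 regions, 4 were called in GFP-induced lists alone and 1 in SMARCB1-induced lists alone, against 42.8% and 38.4% of all regions. The merged SMARCB1 region chr12:46118601-46123976, with 1.73 and 2.00 RPKM, lay across this start and was the best-ranked SMARCB1 region of the window. Only the SMARCB1 peak of replicate 2 crossed the start itself, and those of replicate 1 in this region ended before it. A separate SMARCB1 region 606 bp past the start held no BRD9 peak.

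PBRM1, the polybromo subunit of PBAF that carries several bromodomains, had few BRD9 peaks: 0, 0 and 1 after GFP and 2, 0 and 2 after SMARCB1. They covered 0, 0 and 0.347 kb against 0.752, 0 and 0.926 kb. The groups overlapped at 0 (exact permutation p = 0.4). Of its 17 SMARCB1 regions, 4 held a BRD9 peak in any list, or 23.5%, against 36.9% of all SMARCB1 regions. SMARCB1 was called over its start, chr3:52719326-52720551, at 1.45 and 1.52 RPKM, and no BRD9 list had a peak there.

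SMARCC1, a scaffold subunit on which the complex is assembled, was the gene whose covered length was lower in every SMARCB1-induced list than in any GFP-induced list. Its peaks numbered 2, 4 and 4 after GFP and 2, 1 and 1 after SMARCB1, covering 0.957, 1.52 and 1.60 kb against 0.928, 0.398 and 0.291 kb. The groups were apart by a narrow margin, 0.957 against 0.928 kb, and the means were 1.36 ± 0.350 and 0.539 ± 0.341 kb (SD, n = 3 each; exact permutation p = 0.1). Peak numbers overlapped (exact permutation p = 0.2). No region was lost by the rule, and in the gene body alone the difference was -0.114 kb (exact permutation p = 0.5). The region at its start, chr3:47823276-47823712, had a peak in 1 list of each group, at 5.34 RPKM in GFP-induced replicate 2 and 3.68 RPKM in SMARCB1-induced replicate 1. SMARCB1, in contrast, was called in 25 regions and over the start at 1.66 and 1.77 RPKM. A BRD9 peak of any list lay at 3 of the 25, or 12%, against 36.9% of all SMARCB1 regions. ARID2 had a similar share, 1 of 10, and the SMARCB1 libraries were the deeper ones.

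BRD9, the gene of the protein that was profiled, held a single BRD9 peak in all 6 lists. It lay at chr5:891972-892302, 637 bp into the gene, in replicate 2 of GFP-induced cells, with 12 reads and 3.00 RPKM. Covered length was 0, 0.330 and 0 kb against 0, 0 and 0 kb (exact permutation p = 1). The window held 1 SMARCB1 region, chr5:891276-892126, at 1.13 and 1.20 RPKM, which overlaps that peak. It ranked low, with a mean rank of 75.6% from the top of the lists.

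Per length, the order of the genes differed between the proteins. In SMARCB1-induced cells BRD9 peaks covered 8.85% ± 1.17 of the ARID1A window (SD, n = 3), followed by SMARCA4 with 2.14% ± 0.206. ARID2 with 1.13% ± 0.162 and ARID1B with 1.02% ± 0.0901 overlapped each other, and PBRM1, SMARCA2, SMARCC1 and BRD9 followed at 0.310% or less. After GFP, ARID1A again stood first at 4.28% ± 1.56, SMARCA4 at 1.63% ± 0.332 and ARID2 at 1.16% ± 0.237 overlapped, and ARID1B lay at 0.116% ± 0.111 among the genes near 0. For SMARCB1, the 2 lists covered 31.2% and 37.9% of the ARID1A window and 25.5% and 33.5% of the ARID1B window, ranges that overlap. SMARCC1 had 15.3% and 20.9%, and SMARCA2 was last with 0.504% and 0.802%. SMARCC1 and PBRM1 therefore ranked higher for SMARCB1, at 3 and 4 of 8, than for BRD9 in SMARCB1-induced cells, at 7 and 5 of 8, although the BRD9 values at ranks 5 to 7 overlap.

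At the starts themselves, within 1 kb, SMARCB1 was called at 7 and 8 of the 8 genes. BRD9 was called at 1, 4 and 2 starts in GFP-induced and 4, 3 and 3 in SMARCB1-induced cells, so the counts overlap. Among these genes the SMARCA4 region was the only gained one over a start, a call that merging within 500 bp ended.

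The share of BRD9 peaks lying at SMARCB1 regions was higher in each SMARCB1-induced list than in any GFP-induced list, which is given as a description with no test. At these genes it was 71.4%, 69.6% and 73.1% in GFP-induced lists and 97.1%, 96.6% and 91.7% in SMARCB1-induced lists. Over whole lists it was 20.5%, 41.7% and 29.4% against 57.1%, 65.3% and 65.1%. The difference of the means was 23.7 percentage points in the windows and 32.0 over whole lists. All 9 gained regions and all 6 regions called in every list lay at a SMARCB1 region, as did 95.9% of gained regions and 59.6% of regions of every list in the genome. Of the 20 member regions called in GFP-induced lists alone, 6 did, or 30%, against 13.6% in the genome. Of the 34 called in SMARCB1-induced lists alone, 30 did, or 88.2%, against 59.2%. SMARCB1 regions cover 17.9% of the windows and 5.77% of the genome; how far this moves the shares was not tested. SMARCB1 was mapped in induced cells, so for GFP-induced cells the overlap is with sites called in the induced cells, not with SMARCB1 in the same cells.

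**Figure D4:**
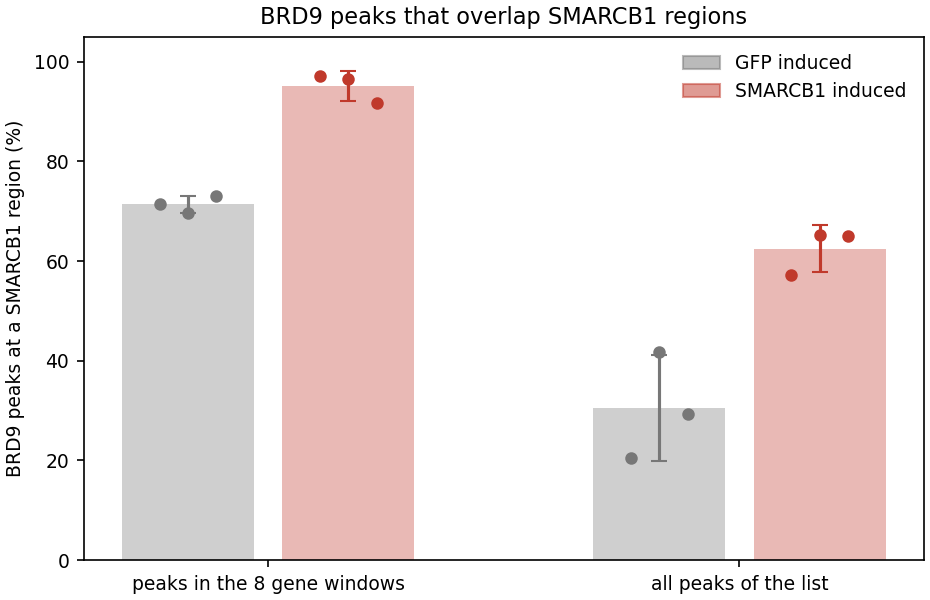
Share of BRD9 peaks that overlap a SMARCB1 region by at least 1 bp (%, vertical axis), in the 8 gene windows and over all peaks of a list, with 1 point per list; bars and whiskers are mean and SD of 3 lists, grey for GFP-induced and red for SMARCB1-induced cells. The window shares are near 71% and 95%, and those of whole lists are lower in both groups.

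Seen from SMARCB1, 41 of the 142 regions in the windows, or 28.9%, held a BRD9 peak of any list, against 36.9% of all SMARCB1 regions. The 41 had a median width of 2725 bp and a median of 1.83 RPKM, and the 101 without BRD9 1425 bp and 1.35 RPKM. A wider region is more easily met by a peak, and this was not corrected for.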

How the data were processed

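CUT&RUN peak lists of 8 of the 10 samples were used, 1 list per sample, so peaks were called per sample. Per peak, the deposited lists give raw counts for the sample and for a control library, RPKM for both, and −log10 of the false discovery rate as the authors' score, per the file headers. The SMARCB1 lists name hg19 and a GFP control per the file headers, and the BRD9 lists name neither. The submitters' processing notes list hg19 and BWA 0.7.12-r1039, SAMtools, bedtools, DiffBind and edgeR without roles, and the peak caller is not given in the sources used here. Library totals were recovered from counts and RPKM; by these totals 1 control of 23.1 M reads served every BRD9 list and another of 49.6 M served SMARCB1. Reads are known at called peaks alone, so a list without a peak has no level there.

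Windows were the given gene coordinates with 20 kb on either side, positions as deposited. Peaks sharing at least 1 bp were merged. SMARCB1 regions hold a peak of both lists, BRD9 regions a peak of any of 6. Covered length was compared per gene with a two-sided exact permutation test, and reads in the 5598 regions called in every BRD9 list with edgeR 4.0.16 (quasi-likelihood, library totals as scaling, Benjamini-Hochberg over all of them, threshold 0.05). DESeq2 1.42.0 was an alternative. Reads were summed over each list's own peaks, so a longer peak gives more reads. The code was tested on simulated data.

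All 8 genes were named. In each window the regions named were those within 1 kb of the start, up to 3 gained and 3 lost by mean rank of score, the 2 best-ranked called in all 6 lists, and the best-ranked SMARCB1 region. The ARID1A region 4.70 kb before its start falls outside this and was added after its values were seen. The members and lists were chosen with earlier results of these data known, and the 200 kb tiles were added after seeing the data. Strands matched the RefSeq promoter table for 6 genes; for ARID2 and SMARCC1 they are from general knowledge. Exon and intron positions on hg19, and other SWI/SNF genes, were not analysed here. Computations used R 4.3.3 and Python 3.11.15.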

Additional observations from a re-analysis of the deposited data

How the results depend on the processing

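Over 21 results and 215 recomputed values, the directions of the summed peaks, covered length and share at SMARCB1 regions held in every alternative run for them. Covered length per gene was recomputed with the gene body alone and without each list; at 7 genes its direction held in these, except that without GFP-induced replicate 2 the BRD9 gene had 0 in both groups. With the gene bodies alone the log2 ratios became 1.47 for peaks and 1.90 for length, and the difference in share 57.0 points. That share difference was 9.41 points with the peaks above each list's median score, 20.2 with peaks of either SMARCB1 replicate, 19.2 with SMARCB1 list 2 alone, and 31.0 without ARID1A. Without ARID1B the log2 ratio of peaks was 0.29; leaving out ARID1A or ARID1B was chosen after seeing the data. Gained regions numbered 3 among peaks above each list's median score, 14 with at least 2 of 3 lists, 5 without ARID1A, 8 with merging within 500 bp (7 of the 9 and 1 other), and 9 to 11 without single lists. Lost regions numbered 2 with at least 2 of 3 lists, 1 with merging within 500 bp, and 0 to 1 without single lists (1 without GFP-induced replicate 1 or 2 or SMARCB1-induced replicate 3). With merging within 500 bp, 7740 of 99781 regions across the genome were gained, or 7.76%. For the other settings no share over all regions is given, so their counts show only how far the rule moved them. Leaving out single lists gave log2 ratios of 0.43 to 0.83 for peaks and 0.73 to 1.13 for length, and 22.8 to 25.4 points for the share.

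Whether replicate numbers pair the libraries was not settled. The deviations of calls correlated at 0.0105, 0.0069 and 0.0016 in the 3 same-numbered pairs, and those of reads at 0.42, 0.19 and -0.04. Correlations of differently numbered pairs are not given for comparison. With the replicate block, gained regions numbered 15 and lost 3 (a call in 1 direction in at least 2 pairs), the log2 ratios were 0.69 for peaks and 0.92 for length, the share difference was 23.7 points, and edgeR called 284 regions higher and 550 lower.

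Calls among the 5598 regions moved most. Higher regions numbered 320 with TMM factors, 488 by DESeq2, 23 per covered base and 62 to 410 without single lists; the lowest count was without SMARCB1-induced replicate 2 and the highest without GFP-induced replicate 2. Lower regions numbered 225 with TMM factors, 347 by DESeq2, 62 per covered base and 99 to 957 without single lists (957 without GFP-induced replicate 2). The cause was not tested.

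Reversed values were small. Covered length at ARID2 differed by -0.279 to 0.217 kb without single lists, and was positive without GFP-induced replicate 3 (0.217) or SMARCB1-induced replicate 2 (0.0968). The SMARCA4 region 18.4 kb upstream had log2 differences of 0.0039 with TMM, 0.022 with DESeq2 and -0.54 to 0.098 without single lists, positive without GFP-induced or SMARCB1-induced replicate 2, and that 12.9 kb upstream -0.066 per covered base and -0.044 to 0.14 without single lists, negative without GFP-induced replicate 1. The ARID1A region 4.70 kb upstream had 0.098 with TMM, 0.11 with DESeq2 and -0.38 to 0.15 without single lists, positive without GFP-induced replicate 3 or SMARCB1-induced replicate 2. Per covered base the ARID1A regions 7.72 and 1.55 kb upstream had -0.046 and -0.23, and the ARID2 region -0.051.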
